A study of Drosophila melanogaster with 6 samples.

Results

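The genes described here build, desaturate, lengthen and reduce fatty acids in Drosophila melanogaster. They are ACC, FASN1, FASN2, Desat1, Baldspot, bond, Elo68alpha and wat, 8 genes in all. A gene was read from a probe set whose only symbol in the array's platform annotation, after updating to current symbols, was that gene. By this rule 7 of the 8 genes had a probe set, each of them 1, among 11982 named genes on the array. Baldspot, an elongase, was not analysed here.

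Fatty acids are made by a short chain of enzymes. Acetyl-CoA carboxylase (ACC) makes malonyl-CoA, fatty acid synthase (FASN) joins malonyl units into a long saturated chain, and desaturases such as Desat1 place a double bond in it. Elongases condense further malonyl units onto the chain to give very long chain fatty acids, and fatty acyl-CoA reductases turn acyl-CoA into aldehydes or alcohols, the route to waxes and hydrocarbons. In insects such lipids waterproof the cuticle, large cells called oenocytes are a main site of their synthesis, and wat (waterproof) is the reductase known from the filling of the embryonic trachea with gas.

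Levels came from whole embryos aged to stage 16, late in embryogenesis, on 1-colour Affymetrix arrays, with 2 arrays per genotype. The wild type was w1118. The mutant carried the allele grhB37 of grh, the gene of Grainy head, which acts as a transcription factor in epidermal tissues. In the overexpression group grh was driven by 69B, a GAL4 line that is active in much of the embryonic epidermis, so the driver reaches only some of the cells that were measured. No embryos with the driver alone were analysed here, and the labels do not give the driver-bearing parent strains, whether grhB37 embryos were homozygous, or how they were picked. The study set both altered genotypes against wild type, so these comparisons share the wild type arrays, and a high or low wild type value would move both.

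All values are log2 expression values as deposited, which ran from a floor of 2.27 to 14.1. A value under 4 on both arrays of a group is called dim. Levels were not compared between genes, since each probe set has its own response. Differences were tested with limma over all 8632 rows at 4 or more on at least 2 arrays, and a gene was called at a Benjamini-Hochberg adjusted p under 0.05. Replicate arrays of a genotype differed by a median of 0.059 to 0.0697, against a median absolute difference of 0.488 between mutant and wild type and 0.461 between overexpression and wild type. As a result 80.9% of all rows were called between mutant and wild type (36.3% higher, 44.6% lower), 80.1% between overexpression and wild type (36% higher, 44.1% lower) and 86.6% between overexpression and mutant (42.9% higher, 43.7% lower). A call by itself therefore says little, and the size of a change carries more. The grh transcript was at 7.41 ± 0.062 (SD, n = 2) for wild type, 9.03 ± 0.017 for the grhB37 arrays and 12.3 ± 0.075 for overexpression. It was thus higher, not lower, on the mutant-labelled arrays. A second grh probe set was dim in all 3 genotypes, at 3.25 in wild type, 3.53 on the mutant-labelled arrays and 2.46 in overexpression. The labels do not give the lesion of grhB37, so a transcript level does not check that label, and the group is called mutant-labelled here. Among array controls, the 3′ minus 5′ value of the second Act5C pair was 2.74 ± 0.056, 2.20 ± 0.069 and 2.74 ± 0.034 in the same order, lower on the mutant-labelled arrays, and that of the first pair 1.44, 1.29 and 1.41. Gapdh was at 0.98, 1.0 and 1.16, highest in overexpression, and eIF4A at 1.08, 1.04 and 1.05. The part of these differences in the results was not tested.

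Of the 7 genes with a probe set, 5 (ACC, FASN1, Desat1, bond and wat) were at 4 or more on all 6 arrays and were tested. None of the 5 passed the filter through 1 group alone. FASN2 and Elo68alpha were dim on every array and were not tested. On the mutant-labelled arrays 4 of the 5 tested genes rose (ACC, FASN1, bond and wat) and 1 fell (Desat1), where 80.9% of all rows were called. In overexpression 2 rose (ACC and FASN1), 2 fell (bond and wat) and Desat1 was not called, where 80.1% of all rows were called. From mutant-labelled to overexpressing embryos 3 were higher (ACC, FASN1 and Desat1) and 2 lower (bond and wat), where 86.6% of all rows were called. The arrays of wild type did not overlap those of the mutant-labelled group for any of the 5 genes (90.3% of all rows did not), nor those of overexpression for 4 of the 5 (89.6%). The altered genotypes did not overlap for 5 of the 5 (93.5%). Changes of at least 2-fold were fewer. On the mutant-labelled arrays FASN1 and bond were higher by that size and none of the 5 was lower, where 17.8% of all rows passed that rule, 10.8% higher and 7.06% lower. In overexpression FASN1 alone was higher and none was lower, where 21.4% of all rows passed, 13.1% higher and 8.27% lower. Between the altered genotypes bond and wat were lower in overexpression and none was higher, where 36.1% of all rows passed, 18.7% higher and 17.4% lower. With only 5 genes these counts are read as descriptions of single genes, not of the set.

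**Figure D1:**
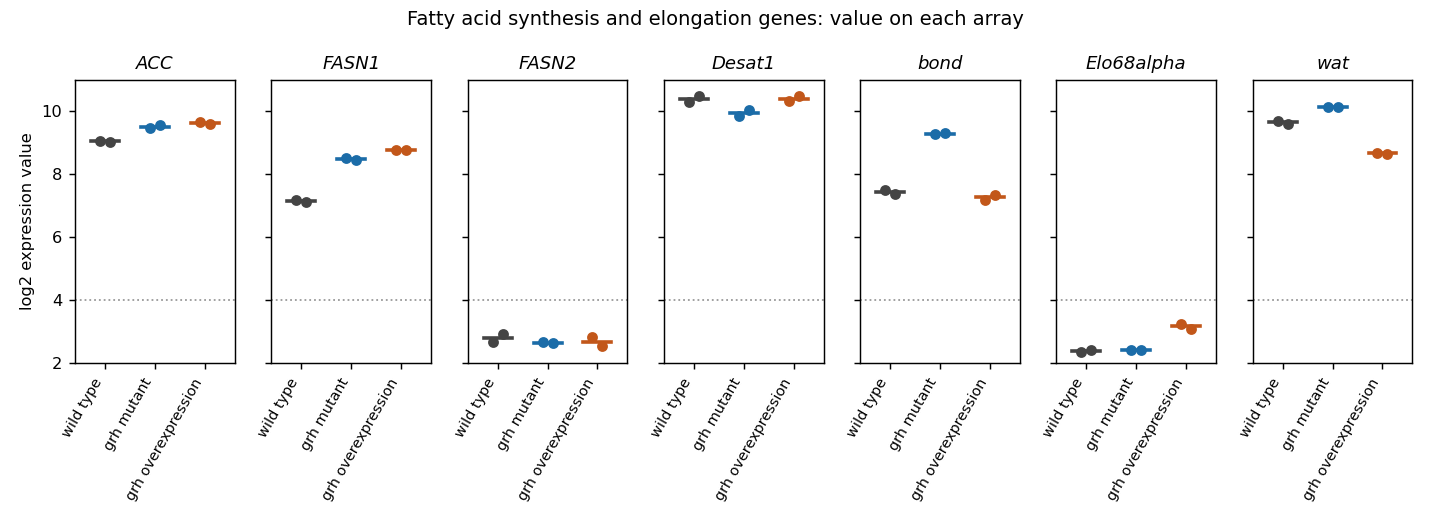
Log2 expression value (vertical axis) of the 7 genes on each of the 6 arrays, grouped by genotype (points: arrays; horizontal bar: mean of the 2 arrays; dotted line: the value of 4 under which a group was dim). FASN1 stands apart in both altered genotypes, bond is high only on the mutant-labelled arrays, wat is low in overexpression, and FASN2 and Elo68alpha lie under the dotted line throughout.

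Both enzymes at the head of the pathway were higher in mutant-labelled and in overexpressing embryos than in wild type. ACC makes the malonyl-CoA used by both FASN and the elongases. Its wild type arrays were at 9.06 and 9.03, the mutant-labelled arrays at 9.46 and 9.56, and the overexpression arrays at 9.66 and 9.60. All 4 altered arrays lay above both wild type arrays. ACC rose 1.38-fold in mutant-labelled embryos, a log2 fold change of 0.47 (95% confidence interval 0.36 to 0.57, limma adjusted p = 3.46e-06), and 1.5-fold in overexpression, a log2 fold change of 0.59 (0.48 to 0.69, adjusted p = 4.64e-07). Between the altered genotypes the difference was 0.12 on the log2 scale (0.011 to 0.23, adjusted p = 0.0395). That last call was lost when the mutant-labelled replicate 1 (adjusted p = 0.283), the overexpression replicate 1 (0.199) or the overexpression replicate 2 (0.0578) was left out, under each of the 3 other scalings tried (0.0547 to 0.431), with no filter (0.124) and without the intensity trend (0.0893).

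FASN1, the fatty acid synthase of the fat body in later stages, moved further. It was at 7.18 and 7.10 in wild type, 8.53 and 8.45 on the mutant-labelled arrays and 8.78 and 8.78 in overexpression. The 3 genotypes did not overlap, and overexpression was the highest. FASN1 rose 2.54-fold on the mutant-labelled arrays (log2 fold change 1.34, 95% confidence interval 1.22 to 1.46, limma adjusted p = 1.15e-09) and 3.11-fold in overexpression (1.63, 1.51 to 1.75, adjusted p = 1.22e-10). The step from mutant-labelled to overexpression embryos, 0.29 on the log2 scale (0.17 to 0.41, adjusted p = 0.000348), was smaller than the step from wild type. In a whole embryo more cells that express a gene and more RNA per cell cannot be told apart, for this and every other gene here.

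The other synthases did not follow FASN1. FASN2, which lies beside FASN1 in the reference (assembly Release 6 plus ISO1 MT) and is known from larval oenocytes, had 6 values between 2.55 and 2.93 and so was dim on every array. Its array values overlapped among all genotypes. FASN3, an oenocyte synthase taken from the pathway list and not one of the 8, was at 6.38 ± 0.077 in wild type, 7.17 ± 0.040 on the mutant-labelled arrays and 3.60 ± 0.26 in overexpression, where it was dim. It rose 1.73-fold in mutant-labelled embryos (limma adjusted p = 2.94e-05) and was at least 5.19-fold lower in overexpression (adjusted p = 4.52e-10). In overexpression FASN1 was thus higher and FASN3 lower than in wild type. The neighbour toc on FASN1's other side rose by 0.69 on the log2 scale in mutant-labelled embryos and fell by 0.27 in overexpression, so it took FASN1's direction in only 1 of them.

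Among genes that supply acetyl-CoA and NADPH or serve de novo synthesis, 10 of 13 listed genes were on the array and 8 were tested, ACC and FASN1 among them. On the mutant-labelled arrays 5 were higher and 3 lower (median log2 fold change 0.34), and in overexpression 4 were higher and 3 lower (0.23), against medians over all tested rows of -0.070 and -0.079. Of all rows 36.3% were higher and 44.6% lower on the mutant-labelled arrays, and 36% and 44.1% in overexpression. The malic enzyme gene Men-b rose 3.02-fold on the mutant-labelled arrays and was not called in overexpression (log2 fold change -0.12, adjusted p = 0.234). Idh, which makes NADPH, rose 2.69-fold in overexpression and was lower by 1.15-fold on the mutant-labelled arrays. ND-ACP, the acyl carrier protein of mitochondria, was 1.5-fold lower in both. AcCoAS, which makes acetyl-CoA from acetate, rose 1.56-fold in overexpression and was 1.18-fold lower on the mutant-labelled arrays. Men-b and Idh, both tied to NADPH, thus changed most in different genotypes.

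**Figure D2:**
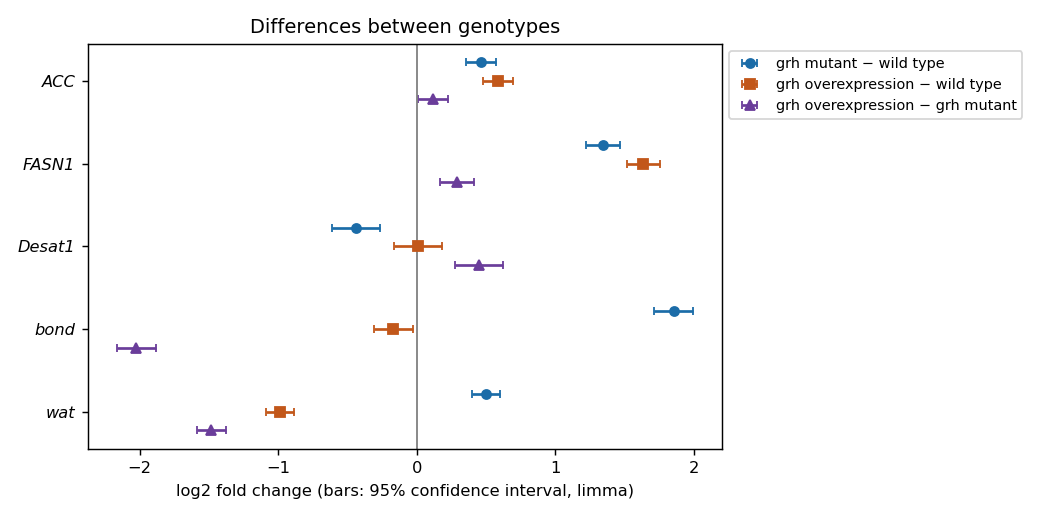
Log2 fold change (horizontal axis) of the 5 tested genes in the 3 comparisons between genotypes, with 95% confidence intervals from limma as bars. ACC and FASN1 lie right of 0 in both comparisons with wild type, bond and wat are right of 0 for mutant-labelled embryos and left of it for overexpression, and the Desat1 interval for overexpression minus wild type spans 0.

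Desat1, the main desaturase of the fly, moved the other way from FASN1 in mutant-labelled embryos. Its wild type arrays were at 10.29 and 10.49, the mutant-labelled arrays at 9.85 and 10.05, and the overexpression arrays at 10.32 and 10.47. The 2 mutant-labelled arrays were below all others, and the overexpression arrays lay inside the wild type range. Desat1 fell 1.36-fold on the mutant-labelled arrays (log2 fold change -0.44, 95% confidence interval -0.61 to -0.27, limma adjusted p = 0.000267). In overexpression the log2 difference was 0.0098 (-0.16 to 0.18, adjusted p = 0.913), so a change of more than 0.18 in either direction lies outside the interval. Desat1 also had the widest spread between replicates of the 5 tested genes, with SDs of 0.10 to 0.14, and in each genotype replicate 2 was the higher array. With no filter on low values the mutant call was lost (adjusted p = 0.0544). Its probe set is of a type whose probes can match several transcripts, as is that of bond.

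The related Desat2 was at or near the floor, at 2.36 in wild type and 2.27 in the other genotypes. Of the desaturase list 8 of 10 genes were tested, with 2 higher and 5 lower on the mutant-labelled arrays (median -0.53) and 3 higher and 2 lower in overexpression (median -0.041). The shares over all rows were 36.3% higher and 44.6% lower on the mutant-labelled arrays, and 36% and 44.1% in overexpression. CG8630, annotated as a desaturase, rose 7.31-fold on the mutant-labelled arrays, from 7.98 ± 0.068 to 10.85 ± 0.047 (log2 fold change 2.87, adjusted p = 2.55e-12), and its difference in overexpression was -0.12 (adjusted p = 0.052). Its rise is the opposite of Desat1's fall. The dihydroceramide desaturase ifc fell by 0.86 on the log2 scale on the mutant-labelled arrays and rose by 0.62 in overexpression, and the cytochrome b5-related gene Cyt-b5-r fell by 0.73 and rose by 0.66. Both had the sign of Desat1 on the mutant-labelled arrays. CG15531 rose by 0.65 on the mutant-labelled arrays and was at least 1.49-fold lower in overexpression, while CG9743 rose by 0.88 in overexpression.

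The elongase bond, known in the adult from pheromone synthesis and sperm cell division, was the most changed of the 5 genes on the mutant-labelled arrays. It was at 7.50 and 7.37 in wild type, 9.28 and 9.29 on the mutant-labelled arrays and 7.19 and 7.33 in overexpression. The mutant-labelled arrays stood well above the other 4, and the overexpression arrays lay just under wild type. It rose 3.61-fold against wild type (log2 fold change 1.85, 95% confidence interval 1.71 to 2.0, limma adjusted p = 3.52e-10) and differed 4.06-fold between mutant-labelled and overexpressing embryos (-2.02, -2.17 to -1.88, adjusted p = 4.69e-11). In overexpression bond fell by 0.17 on the log2 scale (-0.31 to -0.026, adjusted p = 0.0312). That call was lost without the overexpression replicate 1 (adjusted p = 0.251), the wild type replicate 1 (0.218) or either mutant-labelled replicate (0.0611 at its highest), with no filter (0.172), without the intensity trend (0.0542) and with only the 2 groups compared (0.0679), so the fall in overexpression is not settled by these arrays.

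The gene next to bond, the elongase sit, had a larger but like-signed pattern on the mutant-labelled arrays. It was at 7.09 ± 0.10 in wild type, 9.55 ± 0.0035 in mutant-labelled embryos and 5.74 ± 0.21 in overexpression. It rose 5.49-fold (log2 fold change 2.46, adjusted p = 4.57e-10) and fell 2.56-fold (adjusted p = 4.84e-08). AdipoR, on bond's other side, fell by 0.20 on the mutant-labelled arrays and 0.36 in overexpression, so it did not share the rise of bond and sit. Elo68alpha, an elongase known from adult males, and its neighbour Elo68beta were dim. Elo68alpha read 2.37 and 2.41, then 2.43 and 2.43, then 3.26 and 3.08, and fitted with no filter it was 0.78 higher in overexpression (adjusted p = 0.00217), all below the value of 4. The adult female elongase eloF was at 3.21 ± 0.067 in wild type and 2.31 and 2.30 in the altered genotypes, dim throughout.

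Of 20 listed elongases, 18 were on the array and 10 were tested, bond among them. On the mutant-labelled arrays 9 were higher and 1 lower, with a median log2 fold change of 0.69, where 36.3% of all rows were higher. In overexpression 2 were higher and 8 lower, with a median of -0.73, where 44.1% of all rows were lower. With dim genes set at their bound, and at 0 where both groups were dim, the medians over the 10 were 0.42 and -0.51. Without CG6660, which passed the filter only through overexpression, the counts were 8 higher and 1 lower, then 1 higher and 8 lower. Over the alternatives run other than the size rule, the higher count on the mutant-labelled arrays was 7 to 9 and the lower count in overexpression 7 to 10. The number of elongases tested differed among these alternatives, up to all 18 with no filter. These ranges therefore mix changes in calls with changes in the genes tested.

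**Figure D3:**
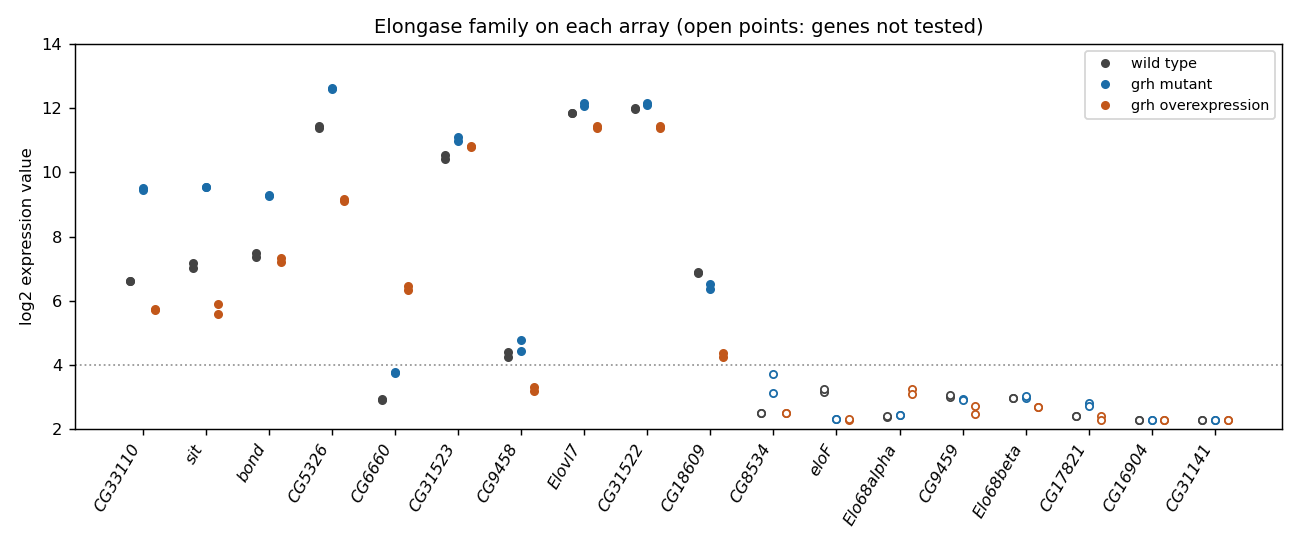
Log2 expression value (vertical axis) of the elongase family on each of the 6 arrays (filled points: tested genes; open points: genes not tested; dotted line: value of 4). CG5326, CG33110, sit and bond have the mutant-labelled points above wild type, and CG5326, CG18609 and sit have the overexpression points below wild type.

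CG33110 rose 7.29-fold on the mutant-labelled arrays (log2 fold change 2.87, limma adjusted p = 6.53e-12), from 6.61 ± 0.0058 to 9.48 ± 0.040, and fell by 0.87 in overexpression. CG5326 stood at 11.42 ± 0.033 in wild type, 12.61 ± 0.025 on the mutant-labelled arrays and 9.15 ± 0.041 in overexpression, a 2.29-fold rise and a 4.81-fold fall. A second CG5326 probe set read 9.04, 11.10 and 6.21, the same directions, and the remaining one was at the floor. CG18609 fell in both, by 0.43 and by 2.56 on the log2 scale, and so ran against bond on the mutant-labelled arrays. CG31523 was higher in both (0.55 and 0.34), one of the few that did not fall in overexpression. CG31522 and Elovl7 rose by 0.14 and 0.27 on the mutant-labelled arrays and fell by 0.59 and 0.43 in overexpression. CG6660, dim in wild type and on the mutant-labelled arrays, was at 6.39 ± 0.089 in overexpression, at least 5.25-fold higher, a direction its filter fixed. Among the other enzymes of the elongation cycle, 4 were tested. Hacd2, a dehydratase, fell by 0.95 and 0.30, and spidey, the ketoacyl-CoA reductase, by 0.81 and 0.89. Hacd1, the other dehydratase, was not called on the mutant-labelled arrays (0.02, adjusted p = 0.681) and fell by 0.50 in overexpression, and Sc2, the enoyl-CoA reductase, was at -0.08 (adjusted p = 0.194) and rose by 0.23. These 4 enzymes therefore lacked the elongases' rise on the mutant-labelled arrays.

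The reductase wat went up in mutant-labelled embryos and down in overexpression. It was at 9.68 and 9.60 in wild type, 10.14 and 10.14 on the mutant-labelled arrays and 8.69 and 8.63 in overexpression. No 2 genotypes overlapped. wat rose 1.41-fold (log2 fold change 0.50, 95% confidence interval 0.40 to 0.60, limma adjusted p = 1.14e-06) and fell 1.98-fold in overexpression (-0.98, -1.09 to -0.88, adjusted p = 2.4e-09). The span between the 2 altered genotypes was 2.79-fold (adjusted p = 3.62e-11). DIP-gamma, before wat in the reference, rose by 0.73 on the mutant-labelled arrays and was not called in overexpression (log2 fold change -0.012, adjusted p = 0.889), so the fall in overexpression was not shared by that neighbour. CG14518, on wat's other side, was at or near the floor on every array and was not tested.

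In the whole reductase list 9 of 15 genes on the array were tested, wat among them, and 3 were higher and 4 lower on the mutant-labelled arrays (median 0.00), and 3 higher and 5 lower in overexpression (median -0.17). Without CG4770, which passed the filter only through overexpression, 2 were higher and 5 lower there. Over all rows 36.3% were higher and 44.6% lower on the mutant-labelled arrays, and 36% and 44.1% in overexpression. CG5065 rose 2.51-fold on the mutant-labelled arrays and was at 0.02 in overexpression (adjusted p = 0.742). CG8303 fell 3.95-fold in overexpression and CG12268 rose 2.78-fold there. CG4770 was at the floor in wild type and on the mutant-labelled arrays and at 7.70 ± 0.047 in overexpression, at least 13.0-fold higher, a direction its filter fixed. CG8306 rose by 1.40 in overexpression. CG30427 fell by 1.27 in overexpression at its brightest probe set, but a second probe set read 9.66, 9.37 and 9.85, with overexpression the highest, so its probe sets disagree.

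**Figure D4:**
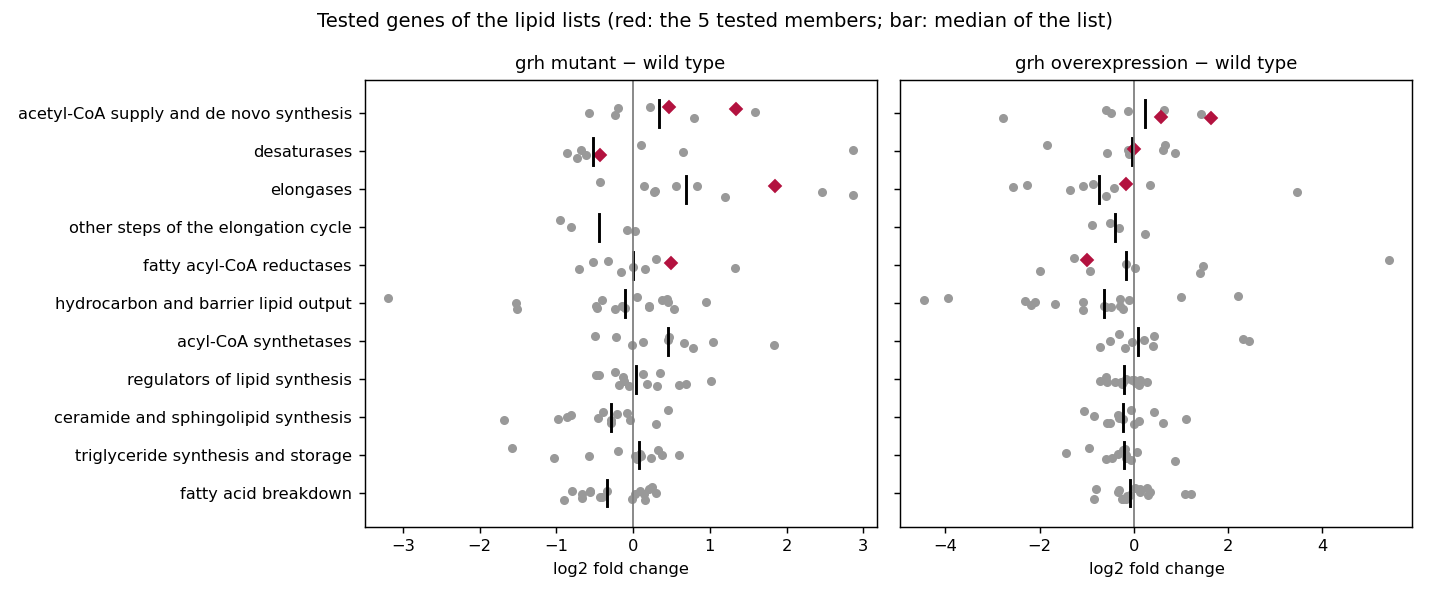
Log2 fold change (horizontal axis) of the tested genes of the 11 lipid lists (vertical axis) against wild type, for mutant-labelled embryos and for overexpression (points: genes; red: the 5 tested genes of the set; bar: median of the list). The elongases lie mostly right of 0 on the mutant-labelled arrays and left of it in overexpression, and the list of hydrocarbon and barrier lipid output lies mostly left of 0 in overexpression.

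Genes that act after synthesis, in hydrocarbon formation, lipid transport and the cuticle barrier, had 17 tested genes. On the mutant-labelled arrays 7 were higher and 9 lower (median -0.11), where 36.3% of all rows were higher and 44.6% lower. In overexpression 2 were higher and 14 lower (median -0.63), where 36% of all rows were higher and 44.1% lower. Cyp4g1, the oenocyte P450 that makes cuticular hydrocarbons, was at 8.61 ± 0.082 in wild type, 9.04 ± 0.023 on the mutant-labelled arrays and 6.43 ± 0.022 in overexpression, a rise of 1.35-fold and a fall of 4.52-fold (limma adjusted p = 2.01e-05 and 1.33e-11). Its relative Cyp4g15 was at least 9.51-fold lower in overexpression and 1.39-fold lower on the mutant-labelled arrays. The lipid-binding lipocalins NLaz and GLaz fell in both, NLaz by 3.20 and 4.46 and GLaz by 1.53 and 2.09 on the log2 scale. Fatp2, a fatty acid transporter, fell by 1.52 and 2.31. The barrier's ABC transporter gene osy fell by 1.67 in overexpression and by 0.11 on the mutant-labelled arrays, a call lost under quantile normalization and under centring on ribosomal protein genes, and snsl, a barrier protein, fell by 1.07 and 0.49. The 2 genes of this list called higher in overexpression were CG11069 and CG31121. CG11069 was at 5.25 in wild type, 6.20 on the mutant-labelled arrays and 7.47 in overexpression, and CG31121 at 6.42, 6.63 and 7.44. Cyp4g1 had wat's direction in both genotypes, while NLaz, GLaz and Fatp2 had it only in overexpression. Cyp4g1 was not alone in this. In wild type, mutant-labelled and overexpressing embryos Apoltp was at 8.90, 9.35 and 8.27 and Mtp at 6.17, 6.71 and 5.87. The brighter LpR1 probe set was at 7.44, 7.65 and 7.14.

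Markers of cell types that hold these enzymes also differed between genotypes, with the direction of some of the 5 genes and against that of others. Their part in the result was not tested. Beside the marker counts, 36.3% of all rows were higher and 44.6% lower on the mutant-labelled arrays, and 36% and 44.1% in overexpression. For oenocytes 6 of 6 markers were tested, and 5 were higher and 1 lower on the mutant-labelled arrays and 1 higher and 5 lower in overexpression. The mean level of the 6 was 7.27 on both wild type arrays, 7.58 and 7.65 on the mutant-labelled arrays and 6.58 and 6.63 in overexpression, the order of wat, and FASN1 was higher in overexpression while this mean was lower. The 1 marker higher in overexpression, Hnf4, lost its call under each of the 3 other scalings. Single genes weighed on the oenocyte mean. In wild type, mutant-labelled and overexpressing embryos salm was at 6.50, 7.94 and 6.20, and Cyp4g1 at 8.61, 9.04 and 6.43. The 1 marker lower on the mutant-labelled arrays, spidey, was at 8.56, 7.76 and 7.67. Cyp4g1, spidey, svp and Hnf4 are also in the lipid lists, so this mean is not independent of those lists. Of 7 fat body markers on the array, 5 were tested, with 3 higher and none lower on the mutant-labelled arrays and 1 higher and 4 lower in overexpression. The 1 higher was Fbp2, which passed the filter only through overexpression, and Fbp1 and Lsp2 were dim on every array. Without Fbp2 the mean of the other 4 was 8.93 and 8.95 in wild type and 9.26 and 9.36 on the mutant-labelled arrays. It was lower, at 8.54, on both overexpression arrays, and FASN1 was higher there. Of these 4, apolpp, Mtp and Apoltp are also in the lipid lists, and srp is also a hemocyte marker. This mean is therefore not independent of those lists either. For trachea 11 markers were tested, with 6 higher and 1 lower on the mutant-labelled arrays and 2 higher and 6 lower in overexpression (mean 7.85 and 7.89, 8.31 and 8.36, 7.39 and 7.41). Of 8 tested epidermal markers, 4 were higher and 4 lower on the mutant-labelled arrays, and 6 higher and 2 lower in overexpression. Their mean, over genes that changed in opposite directions, was 8.77 and 8.74, 8.59 and 8.58, and 9.26 and 9.23. Muscle genes, 8 tested, were all higher on the mutant-labelled arrays and all lower in overexpression. On the mutant-labelled arrays Prm lost its call under quantile normalization. A second Prm probe set read 11.90 in wild type, 11.73 on the mutant-labelled arrays and 11.05 in overexpression. The rise of Prm thus depended on the probe set. The directions of wat were also those of genes of another tissue. Each of the neuron, midgut and hemocyte lists had 1 gene (brp, betaTry and Hml) that passed the filter only through the mutant-labelled arrays. Without it, 4 neuron markers were higher and 1 lower on those arrays, and 1 higher and 3 lower in overexpression. For midgut the counts were 4 and 1, then 3 and 1, and for hemocytes 1 and 4, then 0 and 5. The labelled whole embryo was thus represented by markers of each of these tissues.

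Of 14 tested regulators of lipid synthesis, 6 rose and 4 fell on the mutant-labelled arrays and 3 rose and 7 fell in overexpression (medians 0.037 and -0.20). Among all rows 36.3% were higher and 44.6% lower on the mutant-labelled arrays, and 36% and 44.1% in overexpression. SREBP, the transcription factor of lipid synthesis genes, fell by 0.19 on the mutant-labelled arrays and was at 0.04 in overexpression (adjusted p = 0.491). Mondo, a sugar-responsive transcription factor, rose 2.02-fold and sug 1.61-fold on the mutant-labelled arrays. In overexpression Mondo was called higher by 0.11, a call lost under centring on ribosomal protein genes, and sug was at 0.00. The kinase subunit AMPKalpha fell by 0.48 and 0.71 and the nuclear receptor Hr96 by 0.24 and 0.58, while the ecdysone receptor gene EcR fell by 0.60 in overexpression and was not called on the mutant-labelled arrays (log2 fold change -0.14, adjusted p = 0.184). Lpin rose by 0.60 on the mutant-labelled arrays.

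The acyl-CoA synthetases, which activate fatty acids, had 10 tested genes, with 6 higher and 2 lower on the mutant-labelled arrays (median 0.46; 5 and 2 without CG9993, which passed the filter only through that group) and 5 higher and 4 lower in overexpression (0.094). The synthetase gene hll rose 5.47-fold and Acsx3 5.01-fold in overexpression, and Acsf2 rose 2.06-fold on the mutant-labelled arrays. CG9993 was at least 1.24-fold higher on the mutant-labelled arrays, a direction its filter fixed, CG4830 rose by 0.78 there, and CG6178 fell by 0.72 in overexpression. Of 13 ceramide genes, 2 rose and 9 fell on the mutant-labelled arrays (median -0.29) and 3 rose and 7 fell in overexpression (-0.22). Beside the synthetase and ceramide counts, 36.3% of all rows were higher and 44.6% lower on the mutant-labelled arrays, and 36% and 44.1% in overexpression. Sphingosine kinase Sk1 fell 3.20-fold and the glucosyltransferase gene GlcT 1.97-fold on the mutant-labelled arrays, and Kdsr rose 2.16-fold, CDase fell 2.09-fold and cert, the ceramide carrier, fell 1.81-fold in overexpression.

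Triglyceride and storage genes, 12 tested, had 4 higher and 3 lower on the mutant-labelled arrays (median 0.073) and 1 higher and 8 lower in overexpression (-0.21). The lipid droplet gene Seipin fell 2.98-fold and the acyltransferase mdy 2.04-fold on the mutant-labelled arrays. Agpat2 fell 2.73-fold and the perilipin Lsd-2 fell 1.93-fold in overexpression, where Dgat2 rose 1.83-fold. Of 17 breakdown genes, 6 rose and 9 fell on the mutant-labelled arrays (median -0.34) and 7 rose and 8 fell in overexpression (-0.089). Beside the storage and breakdown counts, 36.3% of all rows were higher and 44.6% lower on the mutant-labelled arrays, and 36% and 44.1% in overexpression. On the mutant-labelled arrays Mfe2 was 1.88-fold, scu 1.74-fold and wal 1.59-fold lower. The carnitine carrier colt and Echs1 rose 2.32-fold and 2.12-fold in overexpression and fell by 0.43 and 0.57 on the mutant-labelled arrays, and Arc42 fell by 0.85 in overexpression. Over all 115 tested lipid genes other than the members, 45 were higher and 49 lower on the mutant-labelled arrays (81.7% called). In overexpression 31 were higher and 67 lower (85.2% called). Of all rows 80.9% and 80.1% were called, with 36.3% and 36% higher and 44.6% and 44.1% lower. The 45 include CG9993, and the 31 include CG6660 and CG4770, whose directions the filter fixed.

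For bond, FASN1 and wat, the members with the widest range of group means, the 3 nearest genes over the 6 arrays were found by the Euclidean distance between values centred on each gene's mean, among 7643 named tested genes. bond lay nearest to bnb (distance 0.136), CG43896 (0.151) and Sbp2 (0.172), the last of which was dim in wild type and overexpression. FASN1 lay nearest to CG9095 (0.106), CG34281 (0.137) and Fbxl4 (0.269), and CG34281 and Fbxl4 were dim in wild type. wat lay nearest to CG1146 (0.060), Acbp4 (0.073) and CG30159 (0.078). These distances are small against the ranges of group means of 2.02, 1.63 and 1.48, and with 6 arrays in 3 groups many genes can share such a shape.

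**Figure D5:**
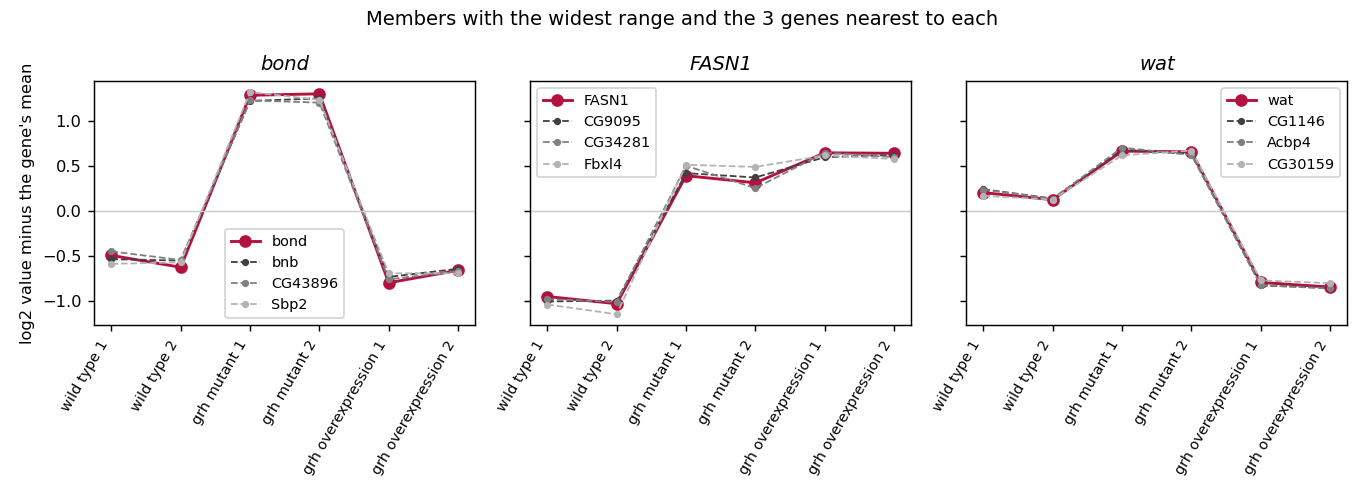
Log2 value minus the gene's own mean (vertical axis) on the 6 arrays (horizontal axis) for bond, FASN1 and wat, each with the 3 genes at the smallest distance from it. The lines of bond and its 3 nearest genes rise on the mutant-labelled arrays, those of FASN1 lie low in wild type and high in both altered genotypes, and those of wat lie low in overexpression.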

How the data were processed

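Deposited values are 1 per probe set and array for 18952 probe sets on 6 arrays, on a log2 scale as the values themselves show, from 2.27 to 14.1. Per the submitters' processing notes the tools were GCRMA and MAS5, and which of them gave these values is not stated there. The values were used as deposited, with no further normalization. Names came from the array's platform annotation (13647 with 1 symbol, 402 with several, 4720 with none, 183 controls left out), with 13544 symbols updated through the reference table of assembly Release 6 plus ISO1 MT and 103 kept. The brightest probe set by mean stood for a gene.

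Of 17104 rows, 8632 at 4 or more on at least 2 arrays were tested, 7644 of them named genes. A means model of the 3 groups was fitted with limma 3.58.1 in R 4.3.3 (lmFit, eBayes with trend), with 3 residual and 7.93 prior degrees of freedom, and 3 contrasts were adjusted by Benjamini-Hochberg over all rows. Exact permutation of 2 arrays against 2 cannot go below a p of 0.333 and was not run. Where a group was dim on both arrays, "at least" gives the bright mean against the higher of 4 and the dim mean. The labels do not say whether replicates are separate collections, so the p-values reflect no more than the spread of these samples, perhaps a technical one. Scripts were tested on simulated data.

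The members, lists and rules were chosen with earlier results of these data known. Named genes are grh, the members, the 3 most changed tested genes of each list in each contrast with wild type, the nearest genes, and homologues or neighbours. A few further ones (osy, snsl, CG11069, CG31121, CG31522, CG31523, Elovl7, CG8306, SREBP, Cyp4g1, and the markers salm, svp, Fbp1, Fbp2, Lsp2, Hnf4, Prm, brp, betaTry and Hml) were chosen after their values were seen. The same holds for LpR1 and the fat body markers apolpp, Mtp, Apoltp and srp. Of the list entries, 4 were left out by name for another function and 4 did not match a current symbol. A planned promoter motif search and protein comparison were not run, since no sequence table was used here.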

Additional observations from a re-analysis of the deposited data

How the results depend on the processing

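The alternatives covered filters, scalings, probe set rules, the trend, the replicate block, the groups fitted and leaving out each array. Leaving out the size rule, 4 to 5 of the 5 genes were called on the mutant-labelled arrays, 3 to 4 in overexpression and 4 to 5 between the altered genotypes. No difference called in the main fit reversed. The Desat1 difference in overexpression, not called, changed sign among the alternatives, from -0.088 to 0.11 on the log2 scale. Requiring an absolute log2 fold change of at least 1 by construction left 2, 1 and 2 genes in these comparisons, against 5, 4 and 5. By the same rule 1538, 1846 and 3114 of all rows were called, against 6979, 6915 and 7479, and 15, 30 and 39 of the pathway genes, against 94, 98 and 105. Over the other alternatives, all rows called ran from 6056 to 7401, 5873 to 7315 and 6307 to 7932. Arrays with the same replicate number share only a number in the labels. With the replicate block, 7171, 7127 and 7637 rows and 5, 4 and 5 genes were called, and no call on the 5 genes changed (Desat1 on the mutant-labelled arrays, adjusted p = 8.66e-08 in limma); deviations of same-numbered arrays correlated at 0.136 to 0.245. The largest shift of the median of all rows under another scaling was -0.0735 on the log2 scale, and no scaling turned a called gene of the lists. Dim genes (FASN2, Elo68alpha) and small differences (ACC between the altered genotypes, bond in overexpression) are where signal over background and 2 arrays per group limit the result.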
